A study of Mus musculus with 9 samples.

Results

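The lines of the overexpression vector system, Pan02OE and Pan02OE-CTL, were compared with the lines of the knockdown vector system, Pan02KD and Pan02KD-CTL, on 8 of the 9 samples of the series. The arrays were assigned by their titles, 4 to each system, and the remaining sample was a control RNA that was not analysed here. Pan02 is a mouse pancreatic ductal adenocarcinoma cell line. Pan02OE carried a lentiviral open reading frame of Nlrx1, a mitochondrial Nod-like receptor, and Pan02OE-CTL carried control particles of the same kind. Pan02KD carried a lentiviral shRNA against Nlrx1 and Pan02KD-CTL a scrambled shRNA, and transduced cells of every line were selected with puromycin. RNA of each line was hybridized to 1 mouse Clariom S array in normal medium and 1 after 24 hours with low-dose hydrogen peroxide (H2O2). Each line was a single transduced population, so a system was represented by 2 lines and not by repeated transductions, and vector system cannot be told apart from anything else that the lines of a system share. The study compared each modified line with the control of its own technology, and the comparison between technologies asks which genes differ between the controls and modified lines of one system and those of the other.

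Lentiviral vectors insert into the genome of the target cell, and the cells that survive drug selection found the line. An open reading frame vector makes the cell translate an added mRNA, whereas a short hairpin vector feeds the RNA interference machinery, which processes the hairpin and loads it onto Argonaute proteins. Cells of a carcinoma line are not uniform, and lines derived from the same parent can settle at different points between epithelial and mesenchymal states.

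Values are log2 signals, so that a difference of 1 is a doubling, and a difference is always the overexpression-system lines minus the knockdown-system lines. A gene was called where limma gave a Benjamini-Hochberg adjusted p under 0.05 over 19505 genes. It was said to part the systems where each of the 4 pairs of an overexpression-system line and a knockdown-system line passed with the same sign. The gap is the distance between the nearest line means of opposite systems. The spread behind these p-values is that between the 2 arrays of a line, which are the same population in 2 media. The 23 antigenomic background probe sets reached 7.48, and where only the lower lines read below this value the fitted difference may understate the change. Where all lines do, neither system was measured above background.

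Nlrx1 read 17.10 in normal medium and 17.31 in H2O2 in Pan02OE, and 6.89 and 6.90 in its control. The knockdown-system arrays read 6.68 and 6.56 where labelled Pan02KD, and 5.96 and 6.4 where labelled Pan02KD-CTL. The arrays labelled Pan02KD were therefore not below those of their control, but all arrays other than those of Pan02OE lay in the background range, where this probe set cannot check the knockdown. The study also checked the lines by western blot for NLRX1 protein, which was not analysed here. Both lines of the knockdown system enter the comparison of systems with the same weight. Nlrx1 did not part the systems, and its mean difference of 5.65 (SE 0.12, adjusted p = 2.7e-08, limma) was 0.49 (adjusted p = 0.092) without the line Pan02OE.

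Between the systems 2150 genes were called by limma (11% of 19505), of which 1082 (5.55%) were higher and 1068 (5.48%) lower in the overexpression-system lines. The median difference over all genes was -0.01. Of the 8787 genes with a line mean above the brightest background probe set, 1897 (21.6%) were called. Gene lists with mostly expressed members are to be read against that share. Of the called genes 774 had line means that overlapped between systems, so that 1 line could carry the mean. The rule of every pair left 192 genes, of which 86 (0.441% of all genes) were higher and 106 (0.543%) lower in the overexpression-system lines. The 4 arrays of a system did not overlap the 4 of the other in 1505 genes (7.72%), of which 950 were called. The plot of both system means shows the 192 genes on both sides of the diagonal over most of the signal range. Leaving out 1 array changed the 192 to between 87 (without Pan02OE in H2O2) and 179 (without Pan02KD-CTL in normal medium), and the other 6 arrays gave at most 103. With the 4 lines as the replicates, 2 per system, limma called 1 gene (0.00513%), Pik3r5 (adjusted p = 0.048). Before adjustment 770 genes (3.95%) passed at 0.05, which is not above the share that chance alone would give. An exact permutation test of a single value over lines cannot give a two-sided p below 0.333.

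**Figure D1:**
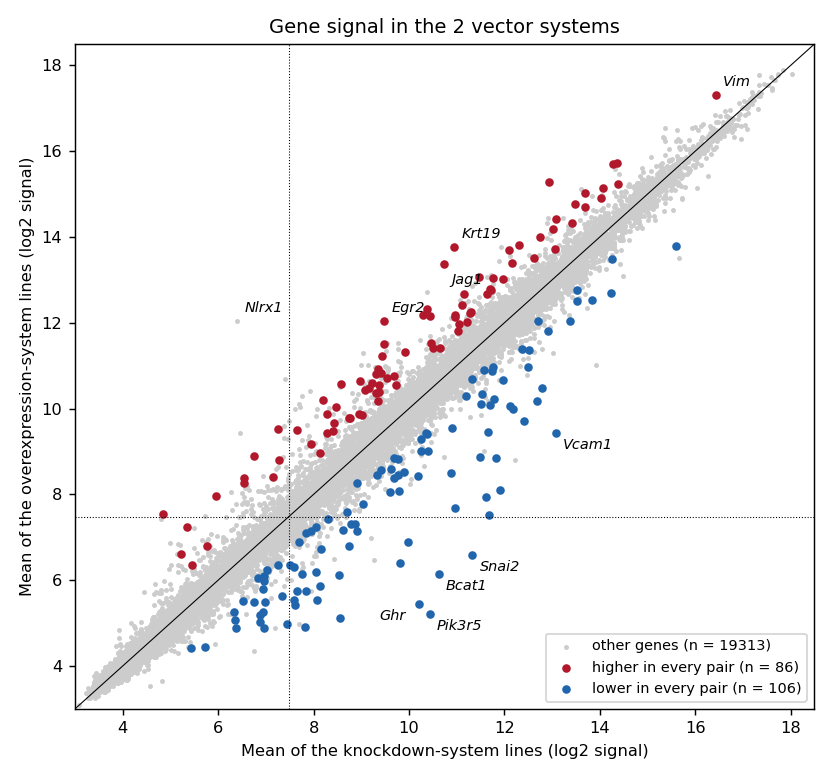
Mean log2 signal of the 2 overexpression-system lines (y axis) against that of the 2 knockdown-system lines (x axis), 1 point per gene, with the 192 genes that part every pair of lines in color. Dotted lines mark the brightest background probe set at 7.48, and Pik3r5, Ghr, Snai2 and Bcat1 lie far below the diagonal with overexpression-system means under that line.

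The systems were not the main axis of difference between the lines. Of the sum of squares between the 4 line means, summed over genes, 27.9% lay along the system contrast, 58.3% along the contrast of Pan02OE and Pan02KD-CTL with the other lines, and 13.8% along modified against control. The Euclidean distance between line means was 58.3 for Pan02OE and Pan02KD-CTL and 63.6 for Pan02OE-CTL and Pan02KD, which are pairs of opposite systems, against 85.6 within the overexpression system and 74.6 within the knockdown system. For the 192 parting genes the system contrast held a median of 91.3% of their sum of squares, against 21.8% over all genes, a share that their selection favors. Of these genes 109 were called neither between Pan02OE and Pan02OE-CTL nor between Pan02KD and Pan02KD-CTL. A further 48 were called in the former comparison, 55 in the latter and 20 of these in both. The gap was at least 1 for 25 genes higher and 43 lower in the overexpression-system lines, at least 2 for 2 and 12, and at least 3 for 0 and 6. In 60 of the 192 genes, 11 higher and 49 lower, both lines of the lower system read below the brightest background probe set, and in 18 all 4 lines did. Just inside the rule lay Camk1d and Ank3, with a largest adjusted p over the 4 pairs of 0.0498 and 0.0499, and just outside it Sh2b3 and 2810025M15Rik (0.0504 each).

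Promoter windows are shown for 9 genes on which the results turn, 3 of the 4 with the largest gaps on the lower side, Jag1 with the largest gap on the higher side among genes with both higher lines above background, and the members of the ERK-responsive, immediate-early, chemokine and antigen presentation groups described next. Each is the 250 bases before an annotated start, 5′ to 3′ on the strand of the gene, from RefSeq with build GRCm38.p6, and where a gene has several windows the one farthest upstream is shown. Capitals mark matches to any of 8 motif patterns on either strand. Windows lie at chr11:68431875-68432124 (+ strand) for Pik3r5, chr15:3583353-3583602 (- strand) for Ghr, chr6:145076158-145076407 (- strand) for Bcat1, chr2:137116521-137116770 (- strand) for Jag1, chr10:67535249-67535498 (+ strand) for Egr2, chr10:99262981-99263230 (+ strand) for Dusp6, chr11:19924192-19924441 (+ strand) for Spred2, chr5:90785851-90786100 (+ strand) for Cxcl3 and chr17:34000348-34000597 (- strand) for H2-K1.
Pik3r5: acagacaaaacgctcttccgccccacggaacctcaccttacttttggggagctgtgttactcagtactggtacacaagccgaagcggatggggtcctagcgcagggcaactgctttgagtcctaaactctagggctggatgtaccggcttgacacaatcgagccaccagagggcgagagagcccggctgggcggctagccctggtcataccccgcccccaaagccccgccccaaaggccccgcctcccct
Ghr: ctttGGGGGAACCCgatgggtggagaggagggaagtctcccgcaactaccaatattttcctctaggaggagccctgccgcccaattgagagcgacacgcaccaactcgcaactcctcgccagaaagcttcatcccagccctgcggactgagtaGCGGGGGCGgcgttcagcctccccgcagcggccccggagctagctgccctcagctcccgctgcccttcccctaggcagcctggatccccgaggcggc
Bcat1: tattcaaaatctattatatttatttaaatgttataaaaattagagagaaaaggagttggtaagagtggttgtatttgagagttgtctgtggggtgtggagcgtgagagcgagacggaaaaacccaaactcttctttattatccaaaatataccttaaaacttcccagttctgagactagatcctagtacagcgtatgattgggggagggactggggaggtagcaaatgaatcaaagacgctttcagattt
Jag1: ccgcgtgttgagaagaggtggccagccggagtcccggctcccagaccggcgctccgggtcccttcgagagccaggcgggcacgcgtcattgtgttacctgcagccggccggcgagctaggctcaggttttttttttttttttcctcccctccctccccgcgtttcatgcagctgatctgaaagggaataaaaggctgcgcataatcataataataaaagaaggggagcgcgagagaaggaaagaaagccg
Egr2: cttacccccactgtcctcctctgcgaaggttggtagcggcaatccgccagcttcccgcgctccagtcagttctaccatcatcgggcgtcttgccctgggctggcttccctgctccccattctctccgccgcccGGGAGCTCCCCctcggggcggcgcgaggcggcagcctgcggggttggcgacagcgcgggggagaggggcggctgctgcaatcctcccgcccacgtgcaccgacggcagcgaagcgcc
Dusp6: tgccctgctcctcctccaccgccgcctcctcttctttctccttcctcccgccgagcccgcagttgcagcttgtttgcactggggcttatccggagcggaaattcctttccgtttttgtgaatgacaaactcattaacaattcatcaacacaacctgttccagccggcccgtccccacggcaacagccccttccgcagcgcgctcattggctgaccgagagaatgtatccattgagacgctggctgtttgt
Spred2: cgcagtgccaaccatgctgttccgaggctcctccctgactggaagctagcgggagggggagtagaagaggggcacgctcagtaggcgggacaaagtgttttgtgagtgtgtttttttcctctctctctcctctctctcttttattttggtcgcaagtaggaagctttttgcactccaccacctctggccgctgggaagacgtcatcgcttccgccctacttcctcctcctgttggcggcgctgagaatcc
Cxcl3: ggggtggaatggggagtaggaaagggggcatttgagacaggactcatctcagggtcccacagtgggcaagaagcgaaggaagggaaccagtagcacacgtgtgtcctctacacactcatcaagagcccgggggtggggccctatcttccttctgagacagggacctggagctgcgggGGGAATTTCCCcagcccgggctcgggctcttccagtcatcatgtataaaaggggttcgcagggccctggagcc
H2-K1: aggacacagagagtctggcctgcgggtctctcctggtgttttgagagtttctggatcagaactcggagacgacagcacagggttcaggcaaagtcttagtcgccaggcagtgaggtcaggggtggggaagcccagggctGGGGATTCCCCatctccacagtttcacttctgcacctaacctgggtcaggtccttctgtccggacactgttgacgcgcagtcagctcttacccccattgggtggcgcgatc

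The 8 patterns were chosen after the values had been seen, and all of them are given here as a description with no test. A window was found for 68 of the 86 higher genes and 81 of the 106 lower genes, and shares are of genes with at least 1 window that holds the pattern. A strict form of the kappa-B site, which NF-κB binds, was found in 2.94% of the higher genes, 11.1% of the lower genes and 4.84% of all 15691 tested genes with a window. A looser form that contains the strict one gave 16.2%, 21% and 12.1%. The CArG box of serum response factor was found in 4.41%, 1.23% and 1.54%. The EGR site GCGTGGGCG or GCGGGGGCG gave 5.88%, 7.41% and 4.89%, and the AP-1 site TGACTCA gave 5.88%, 8.64% and 4.84%. The E-box CACCTG, to which Snail family factors bind, gave 17.6%, 21% and 19.2%. The ETS site CCGGAAGT gave 0%, 3.7% and 4.43%, and the cAMP response element TGACGTCA gave 2.94%, 0% and 2.27%. These shares rest on small counts, from 0 to 17 genes on either side. Matches to the strict kappa-B form stand 73 to 63 bases before the start in Cxcl3 and 111 to 101 bases before it in H2-K1, each as overlapping matches in an 11-base run. In the windows shown, Ghr holds a loose kappa-B match and an EGR match, Egr2 holds overlapping loose kappa-B matches, and those of Pik3r5, Bcat1, Jag1, Dusp6 and Spred2 hold none of the 8 patterns. Egr2 has 5 windows, and a CArG box was found in a window of Egr2 that is not shown.

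Among genes lower in the overexpression-system lines, Pik3r5, the regulatory subunit of PI3K gamma, had the largest gap. It read 5.52 in normal medium and 5.08 in H2O2 in Pan02OE, 5.48 and 4.78 in Pan02OE-CTL, 10.70 and 10.24 in Pan02KD, and 10.53 and 10.25 in Pan02KD-CTL. Every overexpression-system array lay in the background range and every knockdown-system array far above it, with a difference of -5.21 (SE 0.11, adjusted p = 2.7e-08, limma). Snai2, which encodes the Slug transcription factor of epithelial-mesenchymal transition, showed the same pattern. Its arrays read 6.69 and 6.74 in Pan02OE, 6.47 and 6.45 in Pan02OE-CTL, 11.47 and 11.37 in Pan02KD, and 11.31 and 11.18 in Pan02KD-CTL (normal medium, then H2O2). Its difference was -4.75 (SE 0.10, adjusted p = 2.7e-08), and neither gene was called within either system.

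Ghr, the growth hormone receptor gene, read 5.27 to 5.70 over the 4 overexpression-system arrays and 9.77 to 10.61 over the knockdown-system arrays (difference -4.78, SE 0.16, adjusted p = 7.9e-07, limma). Bcat1, a cytosolic aminotransferase of branched-chain amino acids, read 5.82 to 6.55 and 10.25 to 10.94 (-4.47, SE 0.14). These 4 genes were thus near background in both overexpression-system lines and well expressed in both knockdown-system lines. Ephx4, an epoxide hydrolase family gene (-3.44), and Dpysl3, a cytoskeletal regulator of axon growth (-2.54), were also in the background range in the overexpression-system lines, and so was B4galt5, a galactosyltransferase gene of glycolipid synthesis (-2.05).

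Other lower genes were above background in at least 1 overexpression-system line. Ccbe1, a secreted gene of lymphatic development, read 7.54 to 8.39 and 11.29 to 12 (-3.69, SE 0.13). Stard5, a sterol-binding protein gene, read 9.59 to 9.79 and 12.03 to 12.72 (-2.72, SE 0.11, adjusted p = 1.7e-06, limma). Atp1b1, the beta subunit of the sodium pump, read 10.05 to 10.86 and 12.62 to 12.90 (-2.29, SE 0.11). For none of these did an array of one system reach the range of the other. Fam83g (-3.79) and the unconventional myosin gene Myo1d (-3.10) parted the systems too, but were also called between Pan02OE and Pan02OE-CTL (1.42 and 1.26), with Pan02OE-CTL the lowest line and in the background range (7.4 and 6.25).

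Among genes higher in the overexpression-system lines, Jag1, a ligand of Notch receptors, read 13.60 and 13.91 in Pan02OE, 12.99 and 12.98 in Pan02OE-CTL, 10.41 and 10.58 in Pan02KD, and 11.32 and 10.64 in Pan02KD-CTL. Its difference was 2.63 (SE 0.16, adjusted p = 1.8e-05, limma), and the arrays of the systems did not overlap. The largest gaps on this side were smaller than on the other (at most 2.19 against 5.08), while the median gaps were close (0.83 and 0.9). Most of the higher genes were expressed in both systems. Stau2, which binds double-stranded RNA in transported mRNAs, read 10.96 to 11.55 and 9.12 to 9.60 (1.79, SE 0.14). Tmem171 read 13.57 to 14.12 and 12.20 to 12.45 (1.5, SE 0.12), and Gcnt2, which branches poly-lactosamine chains, 12.40 to 12.95 and 10.96 to 11.27 (1.5, SE 0.10). Sema6d, a transmembrane semaphorin, read 9.10 to 10.05 and 6.65 to 7.73 (2.27, SE 0.11), and was called within both systems as well. Spata6 (2.13), Serinc2 (1.94), Rem2, a small GTPase that inhibits calcium channels (1.89), and the choline transporter-like gene Slc44a2 (1.71) completed this group, in which Spata6 and Slc44a2 were in the background range in both knockdown-system lines.

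**Figure D2:**
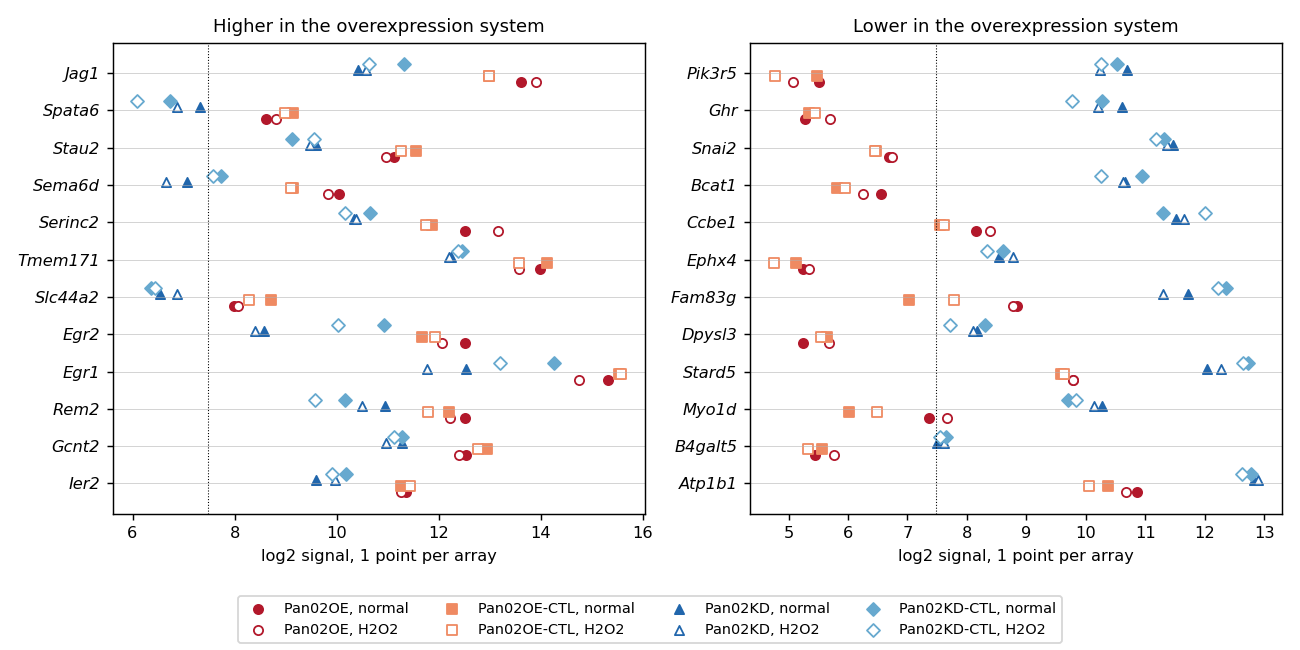
Log2 signal on each array (x axis) of 12 genes per direction, with lines by color and shape and H2O2 arrays as open symbols. The genes had the largest gaps among parting genes with both lines of the higher system above background and no predicted names. The dotted line marks the brightest background probe set at 7.48. For every gene the red and orange symbols of the overexpression system stay apart from the blue symbols of the knockdown system, and Pik3r5 shows the widest separation.

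Hspb8, a small heat shock protein gene, had the largest gap on this side (2.19), with line means of 7.8 in Pan02OE, 7.28 in Pan02OE-CTL, 4.59 in Pan02KD and 5.09 in Pan02KD-CTL (difference 2.7), and Pan02OE alone was above the background range. Among higher genes that were well expressed in every line, the matrix gene Npnt averaged 15.93, 15.52, 14.21 and 14.51 (1.37), and Igfbp7, a secreted binding protein of insulin-like growth factors, 14.9, 15.14, 13.55 and 13.82 (1.34). Sgk1, a serum- and glucocorticoid-induced kinase gene (11.71, 12.59, 10.26 and 10.63), and Socs2, a feedback inhibitor of growth hormone and cytokine signaling (14.08, 13.89, 12.4 and 13.09), parted the systems in the same direction. So did Nr4a1, an immediate-early nuclear receptor gene (10.75, 10.33, 9.13 and 9.61), and Fyn, a Src family kinase gene with 11.27 in Pan02OE and 9.14, 7.91 and 8.49 in the other lines. The phosphatase gene Ptpn13 (12.7, 13.41, 11.83 and 11.1) and Tet2, which oxidizes methylated cytosine (12.25, 12.19, 11.08 and 11.49), were further members.

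Lower genes with well-known roles included Axl, a receptor tyrosine kinase, with line means of 13.97 in Pan02OE, 13.6 in Pan02OE-CTL, 15.45 in Pan02KD and 15.76 in Pan02KD-CTL (-1.81). Irf1, a transcription factor of interferon responses (10.44, 10.22, 11.98 and 11.1), Rfx5, a regulator of MHC promoters (9.86, 10.35, 11.79 and 11.21), and Casp4, an inflammatory caspase gene (8.42, 8.62, 10.43 and 9.36), were lowest in the overexpression-system lines and highest in Pan02KD. The cytidine deaminase gene Apobec3, which restricts retroviruses, averaged 9.42, 10.55, 12.83 and 11.5 (-2.18). Cth, the cystathionine gamma-lyase gene of cysteine synthesis (13.07, 11.98, 13.71 and 13.95), and the repair enzyme gene Msra, which reduces oxidized methionine (9.7, 9.4, 10.99 and 10.82), were lower as well. Maoa, which encodes a monoamine oxidase, was at 4.9 in both overexpression-system lines and at 7.13 and 8.54 in the others, and Ripk3, a kinase gene of necroptosis, parted the systems within the background range (4.94, 5.18, 6.29 and 6.43). In some lower genes the overexpression-system lines lay farther apart than the gap between systems, as in Syt8 (5.79, 9.23, 12.25 and 11.08) and Mustn1 (5.63, 9.71, 11.23 and 10.7), and Akr1c18 reached 12.23 in Pan02KD-CTL and 6.29 to 7.41 in the other lines.

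The immediate-early transcription factor genes Egr1, Egr2 and Ier2, which growth factor and serum signals induce through ERK, were higher in the overexpression-system lines. Egr1 read 15.31 and 14.75 in Pan02OE, 15.52 and 15.57 in Pan02OE-CTL, 12.53 and 11.77 in Pan02KD, and 14.25 and 13.20 in Pan02KD-CTL (difference 2.35, SE 0.17, adjusted p = 4.5e-05, limma). Egr2 read 11.67 to 12.52 over the overexpression-system arrays, 8.58 and 8.40 in Pan02KD, and 10.93 and 10.03 in Pan02KD-CTL (2.56, SE 0.17). Both parted the systems and were lower in Pan02KD than in Pan02KD-CTL (-1.57 and -1.99). Ier2 read 11.25 to 11.44 and 9.60 to 10.18 (1.41, SE 0.13) and was not called within either system.

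Of 18 measured ERK-responsive genes 12 were higher in the overexpression-system lines and 0 lower, with a median difference of 0.63 against -0.01 over all genes. Their called share was 66.7%, against 11% of all genes and 21.6% of genes with a line mean above background. Besides Egr1, the ERK phosphatase gene Dusp6 (15.93 and 15.48 in Pan02OE and Pan02OE-CTL, 13.96 and 14.60 in Pan02KD and Pan02KD-CTL) and Spred2, an inhibitor of Ras-ERK signaling (14.80, 14.59, 13.49 and 13.91), parted the systems. Pan02KD was the lowest line for 11 of the 12, and without this line 5 of the 18 were called higher, with a median of 0.36. The others with differences above 1 were the phosphatase gene Dusp5 (1.53), the receptor tyrosine kinase inhibitor genes Spry1 (1.31) and Spry2 (1.04), and Phlda1 (1.30). Spry1 followed the other axis, with 14.50 in Pan02OE-CTL and 13.26 in Pan02KD against 10.45 in Pan02OE and 9.07 in Pan02KD-CTL.

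Growth factor genes divided. Of 39 receptors and ligands 10 were higher and 5 lower in the overexpression-system lines, or 38.5% called against 11% of all genes. Egfr, the epidermal growth factor receptor gene, read 10.37 to 11.06 and 8.54 to 9.43 (1.68, SE 0.11, adjusted p = 2.8e-05, limma) and parted the systems. The platelet-derived growth factor receptor gene Pdgfrb did so in the opposite direction, at 6.66 to 7.52 and 7.85 to 9.86 (-1.77, SE 0.13). The EGFR ligand genes Btc (1.25), Ereg (0.90) and Hbegf (0.78) were higher in the overexpression-system lines without parting the systems. Among 25 PI3K and AKT genes 4 were higher and 2 lower, or 24% called against 21.6% of genes with a line mean above background. The balance turned to 2 and 4 without Pan02OE-CTL and to 3 and 4 without Pan02KD. Next to Pik3r5 the AKT phosphatase gene Phlpp1 parted the systems (0.78, SE 0.11).

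NF-κB components and targets lay on the other side. Of 23 measured genes 10 were lower in the overexpression-system lines and 0 higher, with a median difference of -0.42. That is 43.5% called, against 11% of all genes and 21.6% of genes with a line mean above background. Vcam1, an adhesion molecule gene that NF-κB induces, read 11.69 and 11.28 in Pan02OE, 7.44 and 7.30 in Pan02OE-CTL, 13.85 and 13.17 in Pan02KD, and 13.07 and 12.22 in Pan02KD-CTL (-3.65, SE 0.14, adjusted p = 1.3e-06, limma). It parted the systems, but Pan02OE exceeded its own control by 4.11, which was more than the gap of 1.16 between systems. Pan02OE-CTL was in the background range for this gene. Nfkbia, which encodes the inhibitor IκBα, averaged 12.66, 12.04, 14.14 and 13.33 (Pan02OE, Pan02OE-CTL, Pan02KD, Pan02KD-CTL) and was lower by 1.38 without parting every pair. The lipocalin gene Lcn2 read 11.45 in Pan02OE-CTL and 15.50 to 15.82 in the other line means. Pan02OE-CTL was the lowest line for 8 of the 10 called genes, and 5 of the 23 were called lower without it and also 5 without Pan02KD.

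Cytokine and chemokine genes had 12 of 38 lower and 4 higher. These made 42.1% called, against 11% of all genes and 21.6% of genes with a line mean above background. Cxcl3, a neutrophil chemokine gene, read 10.55 and 10.19 in Pan02OE, 7.44 and 7.22 in Pan02OE-CTL, 11.84 and 11.11 in Pan02KD, and 12.60 and 11.79 in Pan02KD-CTL (-2.98, SE 0.13, adjusted p = 2.6e-06, limma). Cxcl16, a transmembrane chemokine gene, averaged 11.49, 8.87, 12.78 and 12.60 in the same order of lines (-2.51, SE 0.11). Both parted the systems with Pan02OE-CTL the lowest line, for Cxcl3 in the background range, and both were also called between Pan02OE and Pan02OE-CTL. Il11, a cytokine of the IL-6 family, was higher in the overexpression-system lines, with means of 9.89 and 11.48 against 7.37 and 7.42 (3.29, SE 0.47, adjusted p = 0.0023, limma), without parting every pair. Both knockdown-system means of Il11 were in the background range. The counts of the list were 1 higher and 10 lower without Pan02OE-CTL, 6 and 11 without Pan02OE, and 2 and 14 without Pan02KD-CTL. Among 32 cytokine receptor genes 8 were higher and 4 lower, or 37.5% called. The interleukin 1 receptor gene Il1r1 read 12.02 to 12.27 and 10.90 to 11.01 (1.19, SE 0.11), whereas its accessory chain gene Il1rap, in the background range in every line, had the opposite sign (-1, SE 0.12). Without Pan02OE-CTL 2 receptor genes were higher and 5 lower, and without Pan02KD 8 and 2.

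Of 16 antigen presentation genes 7 were lower in the overexpression-system lines and 0 higher, with a median of -0.33. Called were 43.8% of this list, against 11% of all genes. Only 6 of the 16 had a line mean above the brightest background probe set, so the calls and the median include genes that stayed in the background range. H2-K1, a classical MHC class I heavy chain, read 13.16 and 13.09 in Pan02OE, 12.17 and 12.35 in Pan02OE-CTL, 14.58 and 14.31 in Pan02KD, and 13.89 and 14.17 in Pan02KD-CTL (-1.54, SE 0.12, adjusted p = 8.2e-05, limma). H2-D1 (-0.94), the light chain gene B2m (-0.57) and the peptide-loading gene Tapbp (-0.82) were lower as well. MHC class I genes are near-identical copies whose probes may not tell them apart. The count was 4 to 7 without any 1 of the lines, with 0 higher each time. Of 36 interferon-stimulated genes 6 were lower and 1 higher (10 and 2 without Pan02KD-CTL), and Gbp2, an interferon-induced GTPase, parted the systems with means between 5.17 and 7.34, all in the background range (-1.5, SE 0.13). Interferon-stimulated genes were called at 19.4%, against 11% of all genes and 21.6% of genes with a line mean above background.

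**Figure D3:**
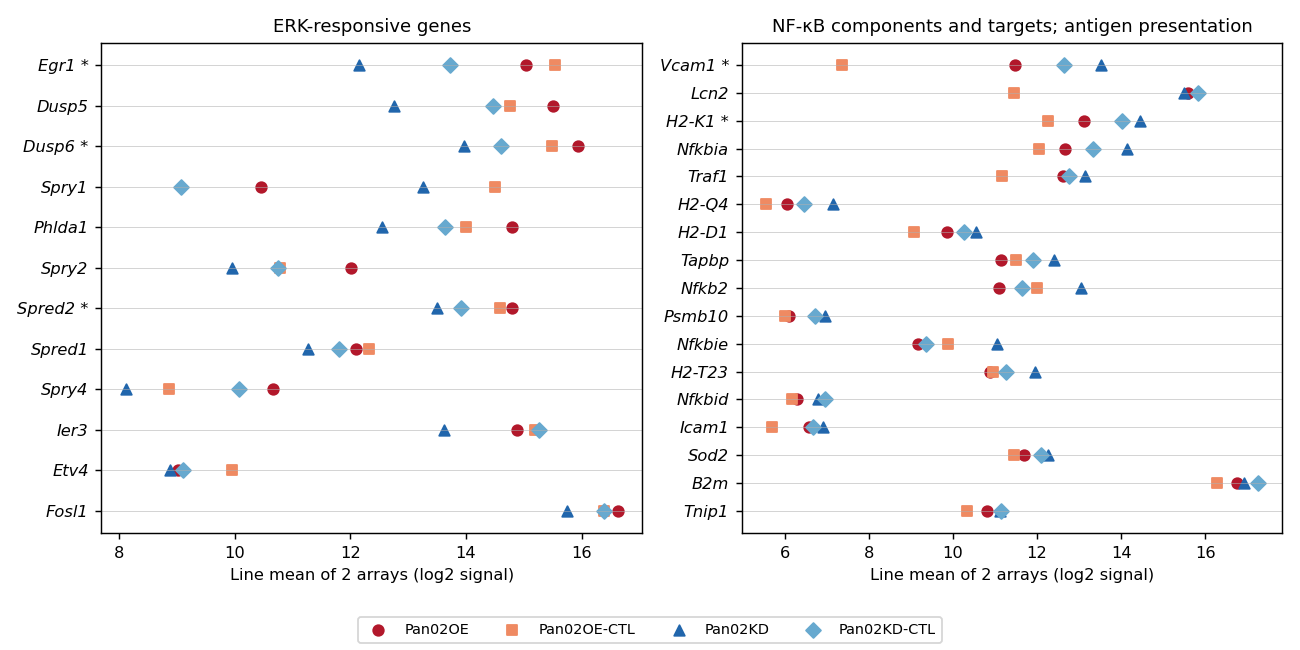
Line means of 2 arrays (log2 signal, x axis) for the called members of the ERK-responsive list (left) and of the NF-κB and antigen presentation lists (right), with an asterisk for genes that part every pair of lines. Blue triangles, Pan02KD, are lowest for 11 of the 12 genes on the left, and orange squares, Pan02OE-CTL, are lowest for 8 of the 10 called NF-κB genes.

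Genes of RNA interference and of nucleic acid sensing were called at 20% in each list. This compares with 11% of all genes and 21.6% of genes with a line mean above the brightest background probe set. Such a line mean was found for 13 of the 15 RNA interference genes and 12 of the 20 sensing genes, so neither share stands out from that of expressed genes. Of 15 RNA interference genes 3 were higher in the overexpression-system lines and 0 lower, among them the Argonaute gene Ago3 (means of 11.90, 10.86, 10.63 and 10.92, difference 0.60, SE 0.13, adjusted p = 0.020, limma), and none parted the systems. The call of Ago3 was lost without the line Pan02OE (0.08, adjusted p = 0.84) or Pan02KD (0.46, adjusted p = 0.13), and the counts of the list were 3 higher and 3 lower without either control line and 0 and 0 without Pan02KD. Among 20 genes of cytosolic RNA and DNA sensing 3 were higher and 1 lower (3 and 3 without Pan02OE-CTL, 4 and 3 without Pan02KD-CTL). Aim2, an inflammasome sensor of double-stranded DNA, read 10.50 to 11.25 and 8.89 to 9.95 (1.57, SE 0.14), and Trim25, a ubiquitin ligase of RIG-I signaling, 8.24 to 8.74 and 9.18 to 9.51 (-0.88, SE 0.14). Both parted the systems in opposite directions.

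Of 17 drug efflux transporters 1 was higher and 3 lower (3 and 3 without Pan02OE, 2 and 5 without Pan02KD-CTL). That share of 23.5% called was near the 21.6% of genes with a line mean above background, against 11% of all genes. Abcb1a and Abcb1b parted the systems, both lower in the overexpression-system lines. They encode P-glycoprotein, which exports many compounds including puromycin. Abcb1a averaged 9.41, 7.57, 9.96 and 11.79 in Pan02OE, Pan02OE-CTL, Pan02KD and Pan02KD-CTL (-2.38, SE 0.11, adjusted p = 3.3e-06, limma), and Abcb1b 9.97, 8.95, 11.18 and 12.12 (-2.19, SE 0.12). The order of the lines was the same in both, with Pan02KD-CTL highest and Pan02OE-CTL lowest. They are neighboring paralogs, so that probes may share signal, and both were called within each system.

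Epithelial and mesenchymal genes were called in both directions. Of 9 transcription factor genes of the transition, Zeb1 was also lower in the overexpression-system lines (-0.44, adjusted p = 0.024, limma) and Snai1 higher (0.89), and neither parted the systems. These counts were 1 higher and 4 lower without Pan02OE-CTL, and 0 and 1 without Pan02KD. Vim, the intermediate filament gene of mesenchymal cells, parted them in the opposite direction to Snai2, at 17.23 to 17.45 and 16.33 to 16.52 (0.88, SE 0.10). Krt19, a ductal keratin gene, was higher in the overexpression-system lines, at 14.56 and 14.54 in Pan02OE, 13.04 and 12.92 in Pan02OE-CTL, 9.71 and 9.54 in Pan02KD, and 12.53 and 12.04 in Pan02KD-CTL (2.81, SE 0.12, adjusted p = 2e-06). The low value of Pan02KD set much of this mean, and the gap was 0.70. Of 25 junction and keratin genes 3 were higher and 2 lower, but 8 and 0 without Pan02OE-CTL and 1 and 4 without Pan02OE. Called were 20% of junction and keratin genes and 33.3% of the transition factors. Over all genes it was 11%, and 21.6% over genes with a line mean above background. The E-cadherin gene Cdh1 averaged 10.76 in Pan02OE and 10.57 in Pan02KD, against 8.64 and 8.2 in their controls, and its system difference of 0.32 was not called (adjusted p = 0.28).

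Matrix and adhesion genes were called in both directions as well. Of 28 mesenchymal and matrix genes 8 were higher and 2 lower, but without the line Pan02OE-CTL the counts were 3 and 6, and without Pan02KD-CTL they were 4 and 4. Tnc, the tenascin C gene, parted the systems within the background range (1.04, SE 0.15). Of 20 integrin and laminin genes 6 were higher and 2 lower, and Itga6, the laminin receptor chain, read 14.62 to 15.07 and 13.04 to 14.08 (1.29, SE 0.12, adjusted p = 0.00016, limma). Without Pan02OE or Pan02KD 2 members of that list were higher. Adamts1, a secreted protease gene, parted the systems (1.88, SE 0.11), with Pan02OE alone above the background range. Of 34 TGF-β, activin and BMP genes 12 were higher and 1 lower, yet 0 parted the systems, and without Pan02OE-CTL 7 were higher and 3 lower. Of 35 axon guidance genes 8 were higher and 4 lower, of which the ephrin receptor gene Epha4 (1.14, SE 0.12) and the netrin receptor gene Unc5b (0.91, SE 0.14) parted the systems. Of 18 Notch genes 4 were higher and 1 lower, and next to Jag1 the target genes Hes1 (0.94) and Hey2 (0.88) were higher and the ligand gene Dll1 lower (-0.86), none of these parting the systems. Without Pan02KD 2 Notch genes were higher. Of 41 Wnt genes 7 were higher and 0 lower (5 and 3 without Pan02OE-CTL), and the co-receptor gene Lrp5 parted them in the background range (0.91, SE 0.15). Called shares were 35.7% of mesenchymal and matrix genes, 40% of integrin and laminin genes and 38.2% of TGF-β, activin and BMP genes. Axon guidance, Notch and Wnt genes had 34.3%, 27.8% and 17.1%. Over all genes it was 11%, and 21.6% over genes with a line mean above background.

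Lineage genes were checked against the label of the cells. Of 10 measured ductal genes 5 had a line mean above the brightest background probe set. Among them Krt19, Krt7 and Sox9 were expressed in every line, while Epcam and Cftr read below 5 in every line. None of 12 acinar, 10 islet or 11 endothelial genes had a line mean above the brightest background probe set, nor did any of 7 Y-linked genes, and of 14 immune cell genes Cd4 alone did. Of 10 ductal genes 4 were higher and 1 lower, but 2 and 2 without Pan02OE and 1 and 2 without Pan02KD. Of 11 fibroblast genes 3 were above it, and 1 was higher and 3 lower (2 and 1 without Pan02KD). Of 45 homeobox and lineage transcription factors 9 were higher in the overexpression-system lines and 0 lower (5 and 1 without Pan02OE-CTL, 5 and 2 without Pan02KD), and Foxa2, a factor of endoderm identity, parted the systems at 8.07 to 8.87 and 5.66 to 7.29 (1.83, SE 0.14, adjusted p = 6.3e-05, limma), with both knockdown-system lines in the background range. Of 33 Hox genes 1 was higher, Hoxa5 (0.58). Called were 50% of ductal, 36.4% of fibroblast, 20% of homeobox and lineage, and 3.03% of Hox genes. Over all genes it was 11%, and 21.6% over genes with a line mean above background.

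**Figure D4:**
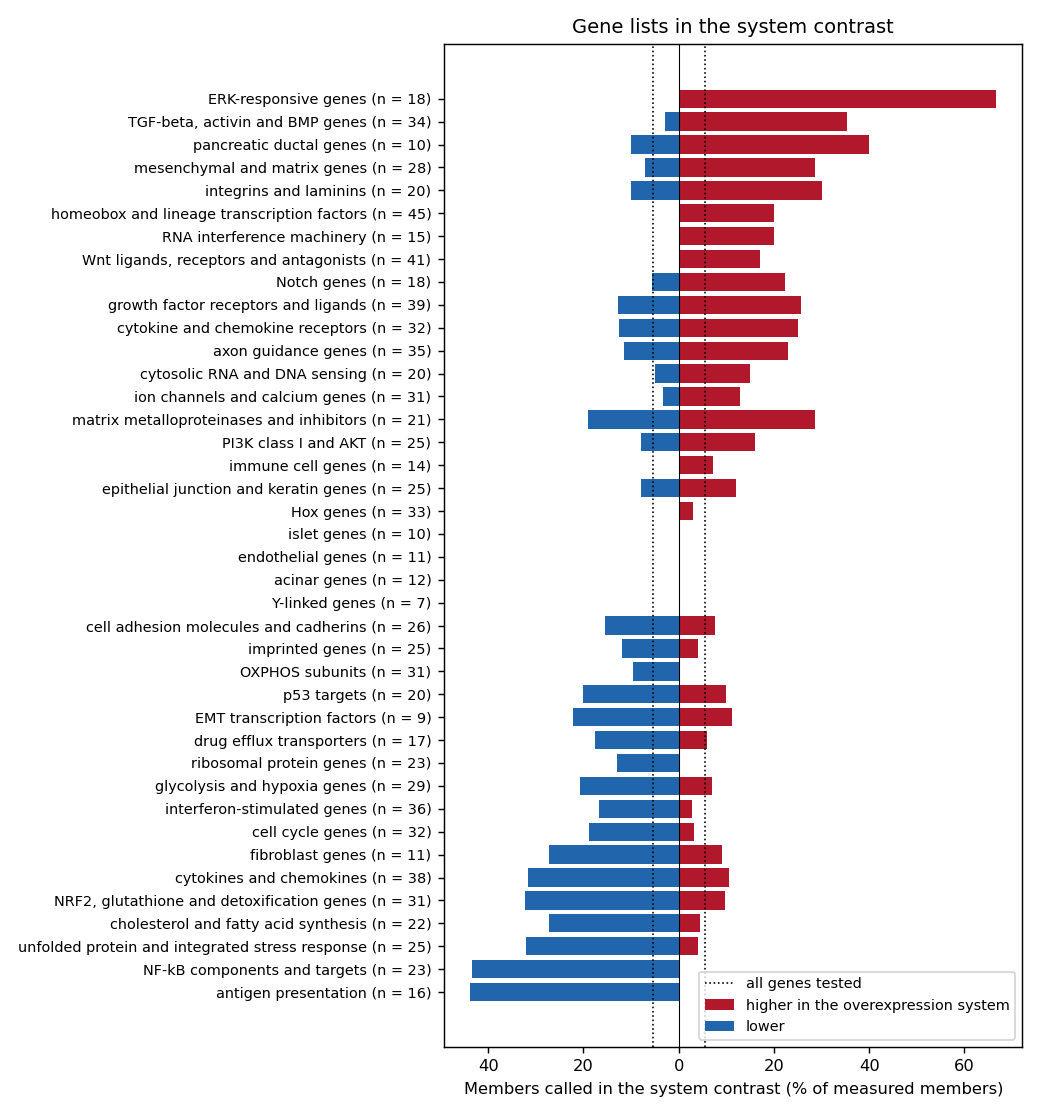
Share of measured members of each gene list called higher (red, right) or lower (blue, left) in the overexpression-system lines, in percent, with dotted lines at the shares over all genes tested (5.55% and 5.48%). ERK-responsive genes have the largest share on the right, and antigen presentation and NF-κB genes the largest on the left. Among genes with a line mean above the brightest background probe set, 21.6% were called in either direction.

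Calls were spread unevenly over chromosomes. On chromosome 6, 110 of 1051 genes were lower in the overexpression-system lines (10.5%) and 23 higher (2.19%), and on the X chromosome 92 of 798 were lower (11.5%) and 20 higher (2.51%), against 5.48% and 5.55% over all genes. All 12 parting genes on chromosome 6 were lower, among them Bcat1 and Mcm2, and 9 of the 12 on X. The opposite held for chromosome 1, with 110 of 1085 higher (10.1%) and 36 lower (3.32%), and for chromosome 10, with 89 of 919 higher (9.68%) and 37 lower (4.03%), where 12 of 15 and 10 of 11 parting genes were higher. For X each of the 4 pairs of lines had more lower than higher calls, from 43 against 17 to 91 against 37. For chromosome 6 the pair of Pan02OE and Pan02KD had 184 lower and 35 higher, whereas the control lines had 79 and 76. For chromosome 1 each pair had more higher than lower calls, from 44 against 31 to 141 against 55. The pairs share lines and are not independent, and no copy number was measured.

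**Figure D5:**
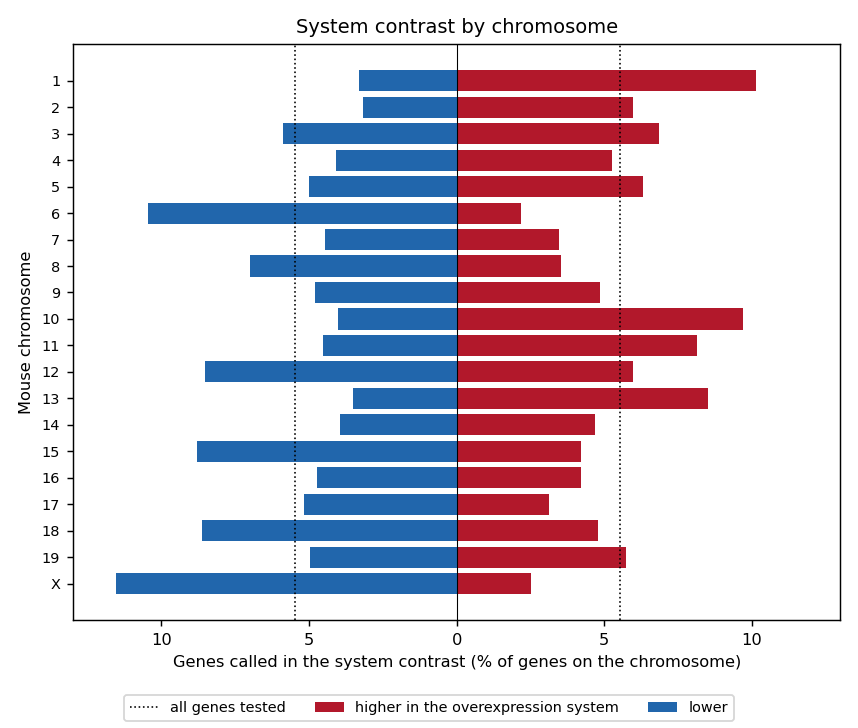
Share of genes on each mouse chromosome called higher (red, right) or lower (blue, left) in the overexpression-system lines, in percent, with dotted lines at the shares over all genes. Chromosomes 6 and X have the longest blue bars, at 10.5% and 11.5%, and chromosomes 1 and 10 the longest red bars, at 10.1% and 9.68%.

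Parting genes that were neighbors among genes above background came in pairs at most, of which there were 5: Abcb1a and Abcb1b, the C-type lectin genes Clec2f and Clec2d, Gm2a and Slc36a1, Rpa3 and Glcci1, and Tmeff2 and Cavin2. The longest run of neighbors called in the system contrast with 1 sign held 6 genes on X, Emd, Dnase1l1, Taz, Atp6ap1, Fam50a and Lage3, all lower in the overexpression-system lines. Runs of 5 were seen on chromosome 6 (Fkbp4, Clec2g, Clec2f, Clec2d and Gabarapl1, lower), chromosome 1 (Mia3, Taf1a, Dusp10, Hlx and Mtarc2, higher) and chromosome 7 (4 Zscan4 paralogs and Zfp110, higher). The Clec2 and Zscan4 genes are close paralogs, which probes may not tell apart.

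For no single gene was the difference between systems detectably of another size in H2O2 in the main fit. The interaction of system and medium called 0 of 19505 genes by limma (smallest adjusted p = 0.62), while 1465 passed at 0.05 before adjustment. That unadjusted count lies above the share of 0.05 of all genes that chance alone would give. With a variance trend and robust estimation 2 genes were called, the clathrin light chain gene Cltb and the thioredoxin inhibitor gene Txnip. With 2 residual degrees of freedom and 1 array per line and medium, the precision of this test was low.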

How the data were processed

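Clariom S mouse arrays (Thermo Fisher) were hybridized with RNA of 4 transduced Pan02 lines in 2 media, 8 arrays in all. The authors deposited log2 signals and named the Transcriptome Analysis Console, whose version, summarization and normalization are not given in the sources used here. Array medians ranged from 6.51 to 6.58, so the values were used as deposited. Of 28846 probe sets 22206 were for genes, and 19572 of these had 1 symbol, 0 several and 2634 none. Each of 19505 genes was represented by its probe set of highest mean signal. Names and gene order were taken from RefSeq (GRCm38.p6). No library depth applies to arrays, and their number limits the precision.

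Lines and medium were additive terms in a linear model (limma 3.58.1 under R 4.3.3, with empirical Bayes moderation), which left 3 residual and 6.2 prior degrees of freedom, and the procedure was tested on simulated data. Simulated lines of a system did not differ from each other, so that test cannot show calls that a single line carries. Benjamini-Hochberg adjustment was over all 19505 genes. The rule for named genes took Nlrx1, the 12 genes per direction with the largest gaps among parting genes with both line means of the higher system above the brightest background probe set and no predicted names, up to 4 parting members of each of 40 lists by gap (otherwise the member with the largest difference), and the genes of the longest runs. Other genes were named after their values were seen. The comparison, the lists and the members were chosen with earlier results of these data known. Alternatives were centering, cyclic loess, 2 filters on signal, all probe sets, a variance trend with robust estimation, no medium term, each array or line left out, lines as replicates or as a random block, and each medium alone. List counts without each line were added after seeing the data.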

Additional observations from a re-analysis of the deposited data

Results flagged for a closer look

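The 4 arrays of each system were compared for each of the 68 named genes, which makes 136 groups, and 2 held an array far from the other 3 by Dixon's criterion (0.829), where chance alone flags about 1 group in 20. Mcm2, a subunit of the replicative helicase, read 10.52 in Pan02OE in normal medium and 10.72 to 10.75 on the other overexpression-system arrays. Cdh5, an endothelial cadherin gene in the background range, read 5.07 in Pan02KD in H2O2 and 4.73 to 4.75 on the other knockdown-system arrays.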

How the results depend on the processing

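The count of 2150 genes stayed within 1.5 times under centering, cyclic loess, both signal filters, all probe sets, the variance trend and no medium term (2120 to 2928) and without any 1 line (1753 to 2776), and was 1164 to 2143 without any 1 array, with 1368 without Pan02OE-CTL in normal medium, 1164 without Pan02KD in normal medium, and 1311, 1211 and 1225 without Pan02OE, Pan02OE-CTL or Pan02KD in H2O2. It was 1 with lines as replicates (770 unadjusted), 33 with line as a random block (1252 at an unadjusted p under 0.05), 3 in normal medium alone and 0 in H2O2 alone by limma (778 and 837 unadjusted), fits with 2 lines per system as replicates. The unadjusted counts of 770, 778 and 837 each lie below the share of 0.05 of all genes that chance alone would give, whereas the 1252 of the random block lie above it. The 192 parting genes became 319 with a filter at the background probe sets, 315 with the variance trend, 68 with a difference of at least 1 in each pair and 38 with a gap of at least 1 between arrays, and 87 to 179 without any 1 array, where 179 was without Pan02KD-CTL in normal medium and the other 7 gave at most 103. Of them 168 also parted the systems under cyclic loess and 176 after centering. The interaction with medium called 2 genes with the variance trend. The system share of the sum of squares was 31% with each gene scaled and 30% in H2O2 alone. Signs reversed for Bmp7 without the line Pan02OE-CTL (-0.61), Dcn without Pan02KD (0.03) and P2rx7 without Pan02KD-CTL (0.98); the cause was not tested. The number of a sample stands for its medium (1 normal, 2 H2O2), so the main fit holds the replicate block as its medium term, and 2120 genes were called and 182 parted the systems with no replicate block. Counts of list members also moved with single lines, as given beside many of the lists. Signals in the background range limit low genes.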

Other observations

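Metabolic and stress genes were lower more often than higher in the overexpression-system lines. Of 31 genes of the NRF2, glutathione and detoxification list 10 were lower and 3 higher (7 and 5 without Pan02KD-CTL), with 0 that parted the systems. Hmox1, a heme oxygenase gene, averaged 13.83, 12.36, 13.89 and 15.09 in Pan02OE, Pan02OE-CTL, Pan02KD and Pan02KD-CTL (-1.39, SE 0.11, adjusted p = 7.7e-05, limma), and the cystine transporter gene Slc7a11 averaged 11.24, 10.75, 11.79 and 12.87 (-1.34, SE 0.14). The sulfiredoxin gene Srxn1 had the opposite sign (1.09). Of 25 genes of the unfolded protein and integrated stress response 8 were lower and 1 higher (5 and 3 without Pan02OE-CTL), and of 22 genes of cholesterol and fatty acid synthesis 6 were lower and 1 higher, (9 and 2 without Pan02OE-CTL), among them Fdps, the farnesyl diphosphate synthase gene (-1.11, SE 0.13). The glucose transporter gene Slc2a1 was higher (1.11, SE 0.12), while 6 of 29 genes of its list were lower and 2 higher (2 and 1 without Pan02KD-CTL). Called shares of these lists, in the order given, were 41.9%, 36%, 31.8% and 27.6%. Over all genes it was 11%, and 21.6% over genes with a line mean above background.

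Of 31 subunits of oxidative phosphorylation 3 were lower and 0 higher (9.68%), against 11% called among all genes. This share is below the 21.6% called among genes with a line mean above background, as 30 of the 31 had. Without Pan02OE 8 were lower, but 1 without Pan02OE-CTL or without Pan02KD. Ndufa1, a complex I subunit gene on X, parted the systems, with means of 10.51, 10.08, 11.27 and 11.11 (-0.89, SE 0.10, adjusted p = 0.00070, limma). Of 32 cell cycle genes 6 were lower and 1 higher, or 21.9% called against 21.6% of genes with a line mean above background. The counts were 12 lower and 0 higher without Pan02OE-CTL and 4 and 8 without Pan02OE, and Mcm2 parted the systems (-0.64, SE 0.11). Of 20 p53 target genes 2 were higher and 4 lower (1 and 6 without Pan02OE, 2 and 2 without Pan02OE-CTL, 0 and 1 without Pan02KD), and Btg2 was higher (0.96, SE 0.11) but not without the line Pan02OE (0.15, adjusted p = 0.62) or without Pan02KD (0.33, adjusted p = 0.24). Of 21 metalloproteinase genes and inhibitors 6 were higher and 4 lower, a balance that turned to 4 and 6 without Pan02OE-CTL and was 4 and 4 without Pan02KD-CTL. Of 26 adhesion molecules 2 were higher and 4 lower (4 and 5 without Pan02KD-CTL, 1 and 4 without Pan02KD), and of 31 ion channel and calcium genes 4 were higher and 1 lower (2 and 2 without Pan02OE). The shares called were 23.1% and 16.1%, against 11% of all genes and 21.6% of genes with a line mean above background. Of 25 imprinted genes 1 was higher and 3 lower (3 and 3 without Pan02KD-CTL). Of 23 ribosomal protein genes 0 were higher and 3 lower by limma, and 0 were lower without Pan02OE-CTL or without Pan02KD. Called were 30% of p53 targets, 47.6% of metalloproteinase genes and inhibitors, 16% of imprinted genes and 13% of ribosomal protein genes.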
